A study of Arabidopsis thaliana with 12 samples.

Results

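PYK10 (AT3G09260, also named BGLU23) and JAL33 (AT3G16450) were followed across 12 Affymetrix arrays of Arabidopsis thaliana seedlings. The pair was found by locus identifier: the probe set 259009_at is annotated to PYK10 alone and 259384_at to JAL33 alone, so 2 genes are described of 10227 that had a probe set of their own. The genes were picked with their signals on these arrays already known. Their levels and differences are therefore descriptions, and no test is given for either.

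PYK10 is a beta-glucosidase that fills ER bodies, spindle-shaped compartments of the endoplasmic reticulum found in the cabbage family. In Arabidopsis seedlings it is most abundant in roots and the hypocotyl, and it cleaves stored glucosides, indole glucosinolates among them, into products that act in defence. When cells are broken, PYK10 meets jacalin-related lectins of the cytosol and they form a large complex whose size those lectins adjust. JAL33 is a lectin of that group. The transcription factor NAI1 is needed for PYK10 expression and NAI2 for ER body formation.

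Each array measured total RNA from whole seedlings grown for 7 days at 22 °C on medium with 0.5x MS salts and 1% sucrose. Controls stayed at 22 °C, and heated seedlings spent 1 h at 37 °C. The lines were the accession Col-0, the accession Ws and the QK mutant, with 2 biological replicates for each of the 6 groups. QK has been described as lacking 4 heat shock factors of class A1 and as carrying alleles from both Col-0 and Ws, and the labels name no allele. Values are the deposited signal on a linear scale, and log2 values are of the signal plus 16. In whole seedlings, fewer cells that make a transcript and less of it per cell cannot be told apart. Which material separates replicates 1 and 2 is given only as "biological replicate".

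The arrays labelled Col-0 replicate 2 went against their treatment labels. Heat raised 62 probe sets at least 4-fold in each of Ws and QK. The heat array of Col-0 exceeded its control for 62 of them in replicate 1 and for 0 of them in replicate 2. Hop3, a heat-induced co-chaperone gene, read 3182.3 in the second Col-0 array with a control label and 35.5 in the second one with a heat label. The groups were kept as labelled. Comparisons between Ws and QK were fitted on the 8 arrays of those lines, so this pair does not enter them, and Col-0 values are given array by array.

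PYK10 had a strong signal in every seedling sample and a lower one after heat in Ws and QK. In Ws it was 4907.8 and 3710.6 in control replicates 1 and 2, and 1740.0 and 1405.8 in heat replicates 1 and 2. In QK it was 6070.2 and 6853.9 in the controls, and 3644.3 and 3329.9 after heat. Both heat arrays lay below both control arrays in each line, as they did for 17.4% of all probe sets tested.

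In Col-0 the signal of PYK10 was 6020.1 in control replicate 1 and 2653.9 in heat replicate 1. In the arrays labelled replicate 2 the order was the opposite, with 1765.7 in the control and 4670.9 in the heat array. The heated seedlings thus kept 44.1% of the control signal in Col-0 replicate 1, against 35.5% and 37.9% in the Ws replicates and 60.0% and 48.6% in the QK replicates.

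The log2 difference of PYK10 between heat and control was -1.44 (SE 0.20) in Ws and -0.89 (SE 0.20) in QK, each from 2 arrays against 2. Over all 13631 probe sets tested the median difference was -0.05 in Ws and 0.00 in QK. A lower value than that of PYK10 was seen for 183 of them in Ws and for 730 in QK. In Col-0 the fit to arrays as labelled gave 0.11 (SE 0.51), and without the pair labelled replicate 2 it gave -1.18.

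At both temperatures PYK10 stood higher in QK than in Ws. Ordered by mean signal, QK controls (6462 ± 554) came first, then Ws controls (4309 ± 847), heated QK (3487 ± 222) and heated Ws (1573 ± 236; SD, n = 2 each). No neighbours in this order overlapped, and how many other probe sets separate in this way was not counted. QK exceeded Ws by a log2 difference of 0.59 (SE 0.20) at control and 1.15 (SE 0.20) after heat. The heat difference of QK minus that of Ws was 0.55 (SE 0.28), and it lay between 0.35 and 0.75 as single arrays were left out. The 2 Col-0 groups, as labelled, spanned 1765.7 to 6020.1 and 2653.9 to 4670.9, and both overlapped other groups.

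**Figure D1:**
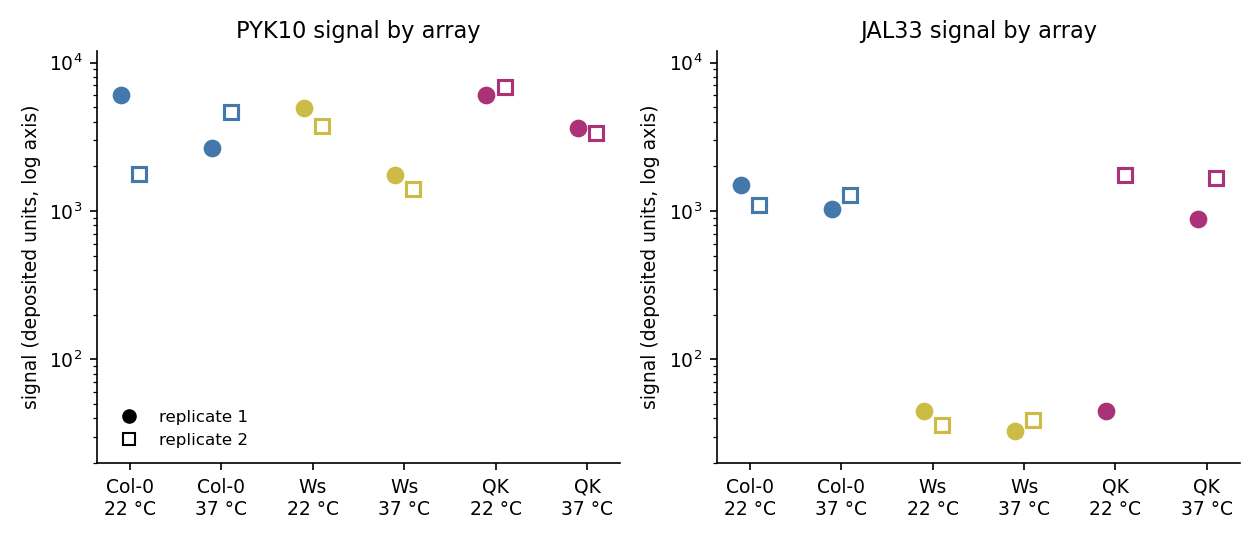
Signal of PYK10 (left) and JAL33 (right) on each of the 12 arrays, on a log axis, with lines and temperatures along the x axis and replicates 1 and 2 as filled circles and open squares. PYK10 lies lower at 37 °C in Ws and QK, while JAL33 is between 33.0 and 44.6 in all Ws arrays and at 45.2 in QK control replicate 1.

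JAL33 differed between Col-0 and Ws at both temperatures. In Col-0 its signal was 1503.3 and 1101.6 in the arrays labelled control and 1026.3 and 1281.0 in those labelled heat. In Ws it was 44.6 and 36.1 in the controls and 33.0 and 39.1 after heat. All 4 Col-0 arrays lay far above all 4 Ws arrays, whichever treatment labels the Col-0 arrays carry.

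The mean over the 4 arrays of a line was 1228 ± 212 in Col-0 and 38.2 ± 4.94 in Ws (SD, n = 4, over both temperatures), a ratio of 32.1. The log2 difference of Ws minus Col-0 was -4.51 (SE 0.87), and 1 of 13631 probe sets had a lower one. All 4 Ws values were below the 35th percentile of their array, a level of 40.3 to 47.0 signal units over the arrays, so the size of the ratio rests on signals near the dim end. The values are hybridisation signals, and whether the probes of 259384_at match the Ws sequence was not tested.

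The QK arrays did not share one level of JAL33. The signal was 45.2 in QK control replicate 1 and 1759.8 in QK control replicate 2, and the heated replicates 1 and 2 read 878.9 and 1678.6. A single QK array was therefore at the level of Ws, and the other 3 were near or above that of Col-0. The QK control mean of 902 ± 1212 (SD, n = 2) describes neither of its arrays.

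Differences of JAL33 that involve the QK controls rest on that array. QK minus Ws at control was 2.55 (SE 1.40) on the log2 scale with both arrays, 4.98 without QK control replicate 1 and 0.12 without QK control replicate 2. Heat minus control in QK was 1.90 (SE 1.40) with both, -0.53 without replicate 1 and 4.33 without replicate 2. Within replicate 2 of QK the heated seedlings kept 95.4% of the control signal. In Col-0 replicate 1 they kept 68.3%, and in Ws 74.0% and 108%.

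Seed markers were also read in QK control replicate 1. LEA18, a late embryogenesis abundant protein gene, had a signal of 387.5 there and 1030.1 in control replicate 2, against 8.9 to 41.6 in the 8 wild-type arrays. ICL, the isocitrate lyase that seedlings use while they consume seed oil, had 555.5 there and 2025.6 in control replicate 2, against 34.1 to 94.8 in the wild types. AT3G17520, the other of the 3 measured seed markers, had 659.7 there and 1411.3 in control replicate 2, against 9.3 to 50.1 in the wild types. All 3 were above every wild-type array in this sample and below the other QK control. How many other probe sets were so placed was not counted. The 3 are those with a probe set of 16 listed, and LEA18 passed the filter only with QK arrays counted. What these levels say about the sample was not tested.

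The position of QK between the accessions was read for other probe sets with the same kind of contrast as JAL33, a rule chosen after the values were seen. All 4 Col-0 arrays were at least 2-fold above all 4 Ws arrays for 36 of 13631 probe sets (0.264%), and JAL33 is among them. The reverse held for 7 (0.0514%). On a scale where the Ws mean is 0 and the Col-0 mean is 1, JAL33 was at 0.04 in QK control replicate 1, 1.12 in the other control, and 0.90 and 1.10 in the heated replicates 1 and 2.

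Of the 36, 18 were below 0.25 in all 4 QK arrays, and 6 were above 0.75 in all 4. A further 4 were below 0.25 in QK control replicate 1 and above 0.75 in the other 3 arrays: JAL33, ZW9 and the probe sets 262908_at and 245218_s_at. ZW9 (AT1G58270) had 43.5 in QK control replicate 1 and 1136.2 in QK control replicate 2. The number below 0.25 was 25 in QK control replicate 1, 19 in control replicate 2, 21 in heat replicate 1 and 18 in heat replicate 2. The departure was not limited to that one sample: AT1G73490 was at -0.01 in QK heat replicate 1 and between 0.94 and 1.00 in the other 3 QK arrays.

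**Figure D2:**
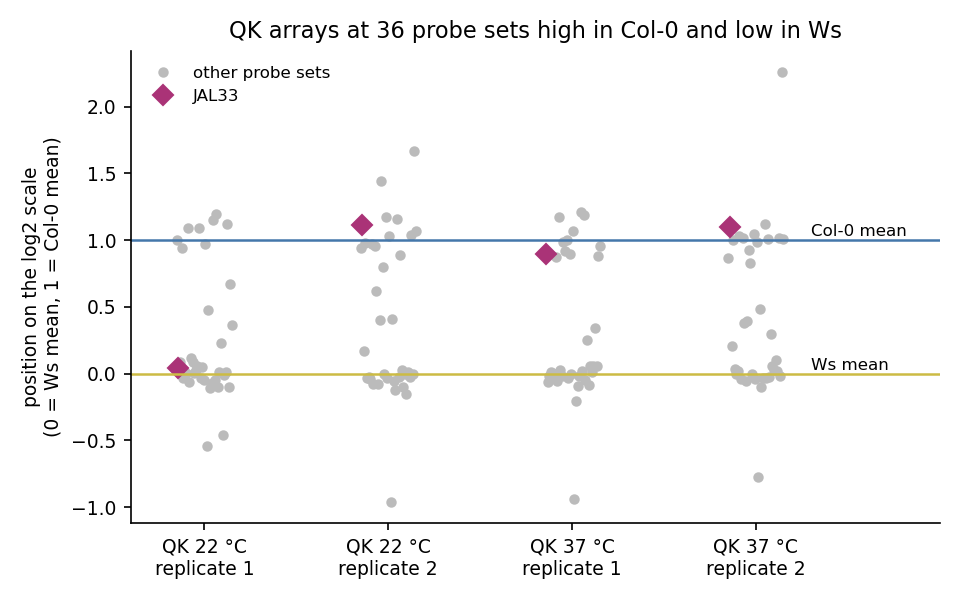
Position of each QK array between the Ws mean (0) and the Col-0 mean (1), on the log2 scale, for the 36 probe sets at least 2-fold higher in every Col-0 array than in every Ws array, with JAL33 as diamonds and the other probe sets as grey points. JAL33 is at 0.04 in QK control replicate 1 and between 0.90 and 1.12 in the other 3 QK arrays.

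The tested gene next to JAL33 did not show its accession difference. JAL34, another jacalin-related lectin gene of the complex, is the next annotated gene on chromosome 3, with 0 annotated genes between them. Its signal was 3383.0 and 1796.6 in Ws controls, 2093.6 and 1353.2 in heated Ws, and 1213.5 to 2787.4 in the Col-0 arrays. In QK it was 3154.6 and 3244.1 in the controls and 2660.8 and 2230.1 after heat, so QK control replicate 1 did not stand apart for this gene.

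Among the 5 nearest tested genes on each side of JAL33, 0 of 10 had all arrays of one accession above all arrays of the other. Over all probe sets this held for 2.55% with Col-0 above and 2.81% with Ws above, so a count of 0 among 10 genes is near those shares. Apart from JAL34 these genes are not direct neighbours. On the other side 11 annotated genes lie between JAL33 and the nearest tested one, AT3G16370, and up to 24 between JAL33 and the farthest. Their log2 differences of Ws minus Col-0 ran from -0.54 to 0.18. The same count was 0 of 10 around PYK10, with differences from -0.11 to 0.38.

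The other genes of ER bodies and of the complex were read from 3 lists of 25 genes, the pair included. Of the other 23 genes 8 had a probe set of their own and 6 passed the filter on dim signals: NAI1, NAI2, JAL34, JAL22, BGLU25 and BGLU19. BGLU24 and JAL23 stayed between 6.6 and 12.9 on all arrays. In Ws heat called 0 of these 6 higher and 0 lower, against 3.46% and 2.05% of all probe sets. In QK the counts were also 0 and 0, against 1.17% and 1.36%. The difference between the QK and Ws heat responses called 0 higher and 0 lower, against 0.0954% and 1.25%. A call needed both a limma adjusted p under 0.05 and a 2-fold difference.

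The transcription factor gene NAI1 and the ER body gene NAI2 are given next. NAI1 had 145.9 and 158.5 in Ws controls, 104.1 and 90.0 in heated Ws, 144.1 and 180.9 in QK controls, and 90.6 and 110.5 in heated QK. NAI2 had 425.6 and 618.4 in Ws controls and 176.0 and 122.6 in heated Ws. In QK it had 452.8 and 1262.9 in the controls and 300.1 and 371.0 after heat. For both genes the heat arrays lay below the control arrays in each line, which held for 2 of the 6 genes and for 17.4% of all probe sets. In Ws alone it held for the same 2 genes (28.2% of all probe sets), and in QK alone for these and JAL34 (25.3%). Each count was above the share of all probe sets, and with 6 genes nothing is read from that.

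Neither gene passed the test without a replicate term. NAI2 had a log2 difference of -1.70 in Ws (SE 0.48, limma adjusted p = 0.097) and -1.15 in QK (SE 0.48, limma adjusted p = 0.268). With the replicate number as a block it was called lower in Ws (limma adjusted p = 0.0292). NAI1 differed by -0.58 in Ws and -0.61 in QK, less than 2-fold, with limma adjusted p = 0.123 and adjusted p = 0.144. In Col-0 replicate 1 NAI1 went from 140.8 to 89.4 and NAI2 from 860.1 to 322.0, and in the pair labelled replicate 2 both ran the other way, as PYK10 did.

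The other lectins and glucosidases on the lists were not called for heat. JAL34 differed by -0.55 in Ws and -0.39 in QK, and JAL22 by 0.00 and 0.40. BGLU25, a beta-glucosidase related to PYK10, differed by -0.24 in Ws and 0.22 in QK, and BGLU19 by 0.00 and 0.32. The 6 genes had a median of -0.40 in Ws and of -0.09 in QK, beside the medians of all probe sets given above. UGT74B1, a glucosyltransferase of glucosinolate synthesis and the single gene of 15 on that list with a probe set of its own, differed by -0.27 and -0.19 and was not called.

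**Figure D3:**
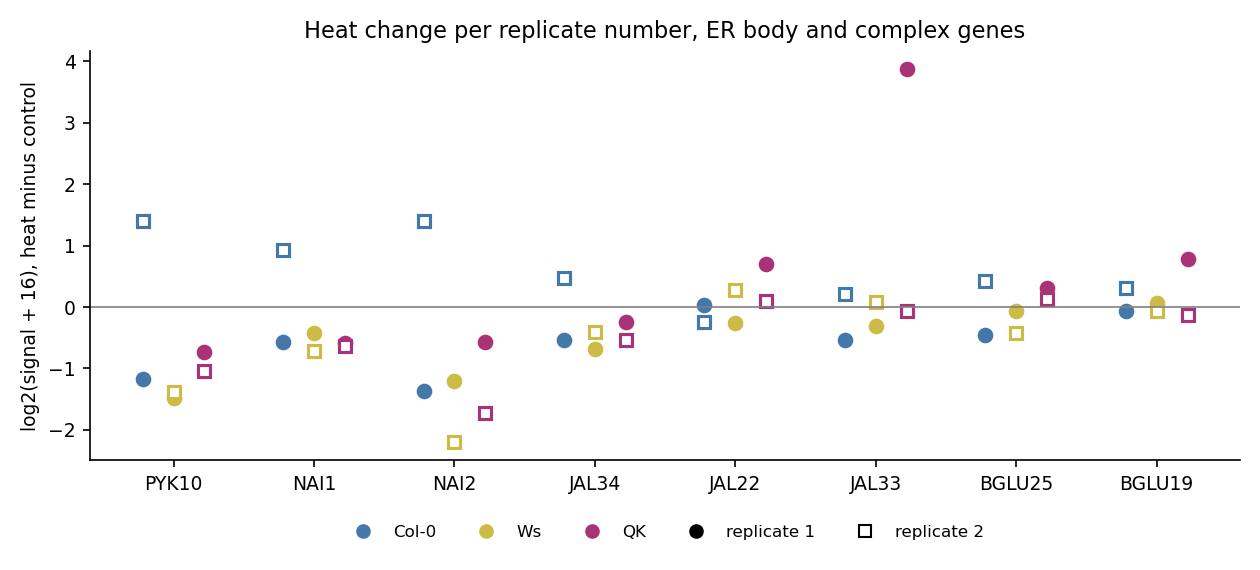
Heat minus control on the log2(signal + 16) scale for 8 ER body and complex genes, 1 point per line and replicate number, with replicate 1 filled and replicate 2 open. PYK10, NAI1 and NAI2 lie below 0 in Ws, in QK and in Col-0 replicate 1 and above 0 in the pair labelled Col-0 replicate 2, and JAL33 lies at 3.87 in QK replicate 1.

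BGLU19, a glucosidase close to PYK10 in the same family, had its high signals in QK. Its signal was 751.1 and 2289.9 in QK controls and 1300.9 and 2088.7 in heated QK, against 11.4 to 60.8 in the wild types. Against Ws it was called higher in QK controls (log2 difference 5.27, SE 0.51, limma adjusted p = 0.025) and after heat (5.59, limma adjusted p = 0.0022), as 1 of the 6 genes both times, against 0.161% and 1.96% of all probe sets called higher, and 0 of 6 were called lower, against 0.022% and 2.7%. Against Col-0 over both temperatures it was again the 1 gene called higher (5.08, limma adjusted p = 0.0011), with 0 called lower, and the shares of all probe sets were 1.48% and 0.624%. In all 4 Ws arrays it lay below the 35th percentile, which it exceeded in 4 of 4 QK and 2 of 4 Col-0 arrays, so the size of these differences depends on the pseudocount: at control it was 6.08 with a pseudocount of 1 and 4.07 with 64. The call at control was lost with 64 (limma adjusted p = 0.0744) and in 6 of the 8 fits that each left out 1 array, where the difference was 5.16 to 5.38 and limma adjusted p reached 0.237. The 3 seed markers with a probe set, of 16 listed, were also high in QK: their summed signal was 1602.7 to 5560.7 in QK and 53.9 to 148.9 in the wild types. LEA18, 1 of them, read at most 41.6 in the wild types, beside a 35th percentile of 40.3 to 47.0. It passed the filter only with QK arrays counted, where it was high. The part of the seed markers in the level of BGLU19 was not tested.

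Root and shoot markers were read beside PYK10. The summed signal of the 3 measured root genes, of 20 listed, was 589.6 and 1029.4 in Ws controls and 237.4 and 506.9 in heated Ws, and it was 840.6 and 1129.8 in QK controls and 580.0 and 703.9 in heated QK. EXPA7, an expansin gene of root hairs, had 57.3 and 106.8 in Ws controls and 29.2 and 33.1 in heated Ws. It was the 1 root gene of 3 whose heat arrays lay below its controls in both lines, which held for 17.4% of all probe sets. AT5G17820 had 502.9 in QK control replicate 1 and 506.9 in QK heat replicate 1. Without a replicate term 0 of the 3 were called by limma in Ws, against 3.46% of all probe sets higher and 2.05% lower. In QK 0 were called, against 1.17% and 1.36%. With the replicate block EXPA7 was called lower in Ws (limma adjusted p = 0.0243) and in QK (limma adjusted p = 0.0293), and AT5G17820 in Ws (limma adjusted p = 0.0401). The block also raised the counts over all probe sets, which are given below with the other settings. Those counts are not split by direction. These block calls therefore have no like share beside them, and nothing about root genes is read from them.

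The summed signal of the 4 measured shoot genes, of 22 listed, was 31039.1 and 33761.3 in Ws controls and 23977.4 and 25700.7 in heated Ws. In QK it was 27811.7 and 29263.7 in the controls and 22806.9 and 26575.1 after heat. PRK, the phosphoribulokinase of carbon fixation, differed by -0.72 in Ws (limma adjusted p = 0.0422) and -0.77 in QK (limma adjusted p = 0.0576). PRK and LHCB4.1, a light-harvesting protein gene, were the 2 of 4 whose heat arrays lay below their controls in both lines. Over all probe sets this held for 17.4%. None of the 4 was called, since no difference reached 2-fold. The part of root or shoot material in the level of PYK10 was not tested.

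PYK10 and JAL33 did not share a pattern over the 12 arrays. Their Pearson correlation was 0.26 (Spearman 0.43), over arrays that share line, temperature and replicate number, and JAL33 ranked 2824 of 7257 genes in likeness to PYK10. NAI2 ranked 159 with r = 0.87, JAL34 ranked 470 with r = 0.79 and NAI1 ranked 525 with r = 0.77. The genes most like PYK10 were AT2G01720 (r = 0.98), AT2G25250 (0.97), AT3G49720 (0.96), AT3G01360 (0.96) and AT4G19110 (0.96). Each of these 5 was, like PYK10, lower in the control than in the heat array of the pair labelled Col-0 replicate 2. That order follows in part from the choice, since the 5 were picked for likeness over arrays that include this pair.

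The genes most like JAL33 were AT1G54260 (r = 0.95), ZW9 (0.94), AT3G22570 (0.92), ATB2 (0.91) and AT3G14600 (0.90). Each of them was lower in QK control replicate 1 than in the other 3 QK arrays, as AT3G14600 with 542.9 against 1168.5 to 1664.9. They were picked for likeness over these same arrays, so the shared low value follows in part from the choice. Over the 8 Ws and QK arrays alone 1 of these 5 was still among the 20 genes most like JAL33. For PYK10 4 of its 5 were. The ranking for JAL33 was then led by AT5G01670 and AT1G52100 (both r = 0.98). AT5G01670 read 18.8 to 30.3 in the wild types, Col-0 included, beside a 35th percentile of 40.3 to 47.0. It entered the ranking through the QK arrays, where it was high, so its r is not read as likeness to JAL33. Without the pair labelled Col-0 replicate 2 all 5 of each were still among the 20. Of the 20 genes most like JAL33 over 12 arrays, 9 lie on chromosome 1 and 4 on chromosome 3, the chromosome of JAL33, and these chromosomes hold 1882 (25.9%) and 1454 of the 7258 genes compared.

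**Figure D4:**
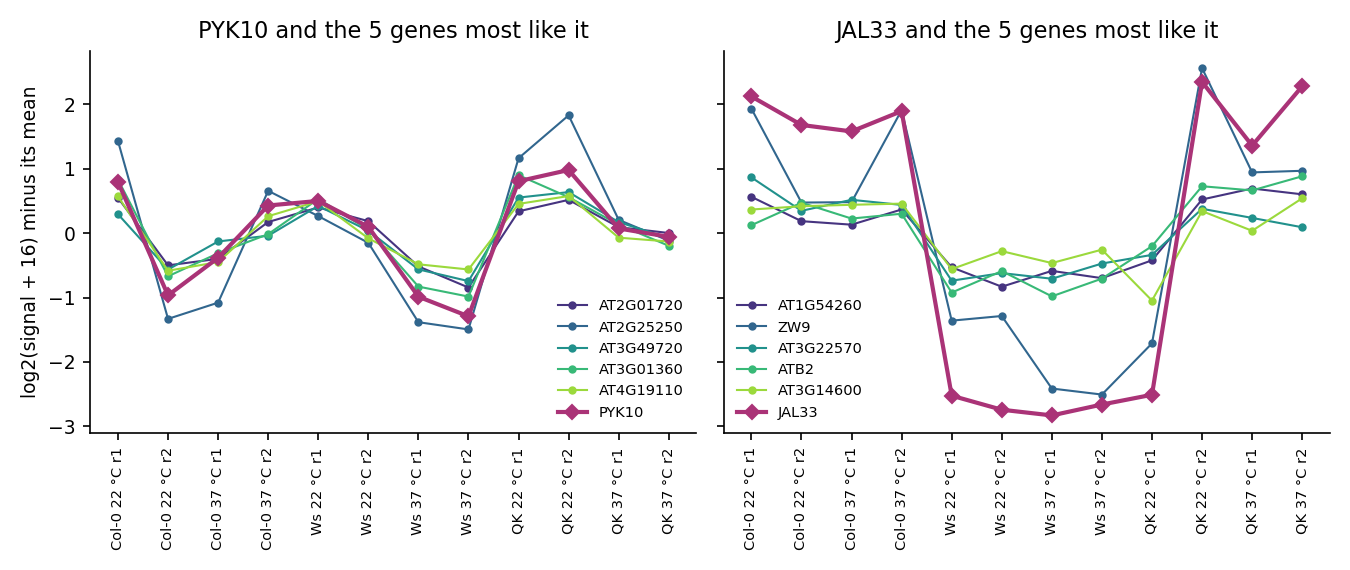
Centred log2(signal + 16) of PYK10 (left) and JAL33 (right), each with the 5 genes of highest Pearson r, over the 12 arrays (r1 and r2 are replicates 1 and 2). The PYK10 group is low in heated Ws, while the JAL33 group is low in all Ws arrays and in QK control replicate 1.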

How the data were processed

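The deposited table holds 1 signal intensity per probe set and array on a linear scale, 18465 probe sets by 12 arrays. Per the submitters' processing notes the authors used GCOS 1.4, and the summary method, the scaling and the detection calls are not given in the sources used here. Array medians were 75.6 to 87.3, and no further normalization was applied. Names came from the platform annotation, matched by gene identifier to the RefSeq table of TAIR10.1, which was used for names and gene order only: 10340 single-gene probe sets matched. Probe sets annotated to several genes were not used for names.

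The scale was log2(signal + 16), and the filter kept the 13631 probe sets that exceeded the 35th percentile of an array at least 2 times. limma 3.58.1 in R 4.3.3 fitted 1 mean per group with an intensity trend, on the 8 Ws and QK arrays (4 residual degrees of freedom) or, where Col-0 enters, on all 12 as labelled (6). Tests were two-sided, with Benjamini-Hochberg adjustment over all tested probe sets. The number of arrays limits precision, and p-values measure the spread between these replicates. The code was tested on simulated data.

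Replicate numbers were checked by correlating replicate 2 minus replicate 1 between groups across probe sets. The correlation was 0.587 to 0.807 in 6 of 6 pairs of Ws and QK groups and -0.173 at lowest with Col-0. Fits with the number as a block are alternatives, and they are named where they change a call.

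The members and the gene lists were chosen with earlier results of these data known. Named were all measured genes of the ER body, complex and glucosinolate lists, the called or else leading genes of the root, shoot and seed lists, and the 5 genes most like each member by Pearson r. For genes with more than 1 probe set the brightest was used. Of 7 nitrile specifier and modifier genes, 3 other myrosinases and 15 jasmonate genes, 0 had a single-gene probe set here.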

Additional observations from a re-analysis of the deposited data

How the results depend on the processing

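The log2 differences of PYK10 and JAL33 kept within 1 residual SD with pseudocounts of 1 and 64, without a filter, with a 50th percentile filter, after 75th percentile centring or quantile normalization, and with the replicate block. That SD is wide for JAL33 because its QK controls differ. Without both arrays labelled Col-0 replicate 2 the PYK10 difference in Col-0 moved from 0.11 to -1.18, also with the replicate block. Leaving out 1 array at a time, PYK10 ranged from -1.64 to -1.24 for heat in Ws, from 0.35 to 0.75 for QK minus Ws in response, from 0.39 to 0.80 for QK against Ws at control and from -0.77 to 0.99 for heat in Col-0. JAL33 ranged from -0.53 to 4.33 for heat in QK, from -0.42 to 4.44 for QK minus Ws in response and from 0.12 to 4.98 for QK against Ws at control, the ends always without one of the QK controls.

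Counts of called probe sets were 751 for heat in Ws, 345 for heat in QK, 183 for QK minus Ws in response, 25 and 635 for QK against Ws at control and heat, 0 for heat in Col-0 (limma, with 8 at an unadjusted p under 0.05), 72 for Ws against Col-0 and 287 for QK against Col-0. With the replicate block they rose to 723 for heat in QK, 370 for QK minus Ws, 106 and 980 for QK against Ws at control and heat, 128 for Ws against Col-0 and 457 for QK against Col-0, and in Ws they were 1118. Without the pair labelled Col-0 replicate 2 heat in Col-0 gave 275, from 1 array against 1, each assumed to vary like the other groups, as are the Col-0 counts with the block. That setting with the replicate block, added after the data were seen, gave 724 for heat in QK, 365 for QK minus Ws, 104 and 980 for QK against Ws, 836 for heat in Col-0, 150 for Ws against Col-0 and 559 for QK against Col-0. With all 12 arrays as labelled the counts were 8 for heat in Ws, 35 for heat in QK, 0 for QK minus Ws by limma and 219 for QK against Ws at heat. A 4-fold minimum gave 271, 111, 288, 24 and 96 for heat in Ws, heat in QK, QK against Ws at heat, Ws against Col-0 and QK against Col-0. A pseudocount of 64 gave 496 for heat in Ws, 13 for QK against Ws at control, 44 for Ws against Col-0 and 167 for QK against Col-0. Leaving out 1 array, the ranges were 308 to 706 for heat in Ws, 64 to 269 for heat in QK, 68 to 114 for QK minus Ws, 0 to 79 and 291 to 635 for QK against Ws at control and heat, 27 to 62 for Ws against Col-0 and 161 to 356 for QK against Col-0. The replicate block ended no call of a named gene. It added those of NAI2, EXPA7 and AT5G17820 given above, and ICL for QK against Ws at control (limma adjusted p = 0.0344). LEA18 was also called for heat in QK. It passed the filter only with QK arrays counted, as said above, so nothing is read from that call. Fewer arrays leave fewer degrees of freedom, and other causes were not tested.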

Other observations

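A wider look at the beta-glucosidase family, a list drawn by symbol after the data were seen, gave 17 genes with a probe set of their own, of which 10 were tested, PYK10 and BGLU19 among them. BGLU33 had a signal of 41.8 and 30.2 in Ws controls, 10.1 and 9.0 in heated Ws, 86.1 and 88.4 in QK controls, and 10 and 13.0 in heated QK. It exceeded the 35th percentile in the 2 QK controls only, so it entered the test through the group where it was high, and no call or fold is given. In the arrays labelled Col-0 it had 45.0 in control replicate 1 and 8.2 in heat replicate 1, and 7.5 and 41.9 in control and heat replicate 2, the order seen for PYK10. BGLU46 had 175.9 and 163.0 in Ws controls and 83.4 and 83.1 in heated Ws. In QK it had 270.2 and 221.4 in the controls and 123.1 and 138.7 after heat. Its Col-0 control and heat values were 126.9 and 66.7 in replicate 1 and 79.3 and 79.6 in replicate 2. Of the 9 tested genes other than PYK10, BGLU33 and BGLU46 had both heat arrays below both controls in each line. That held for 17.4% of all probe sets, and 2 of 9 is near that share.

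BGLU44 followed the replicate number. Its signal was 2661.6 and 1158.6 in Ws control and heat replicate 1 and 236.7 and 154.2 in replicate 2, and in QK it was 1565.7 and 574.6 in replicate 1 and 408.6 and 190.7 in replicate 2. In Col-0 it was 1598.5 and 970.8 in replicate 1 and 120.6 and 196.7 in replicate 2. All 6 arrays of replicate 1 lay above all 6 of replicate 2, and BGLU44 was chosen for mention after its values were seen. How many other probe sets separate by replicate number in this way was not counted.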
